A study of Homo sapiens with 8 samples.

Results

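The genes described here remodel the protein scaffold around cells. They are the matrix metalloproteases (MMP), the ADAMTS proteases, the tissue inhibitors of metalloproteases (TIMP), the plasminogen activation genes PLAU, PLAUR and PLAT, and the lysyl oxidase genes LOX, LOXL1, LOXL2 and LOXL4. They were chosen by gene name, and 54 of 48405 rows in each deposited table matched, for 52 distinct genes. Of these, 38 rows for 38 genes lay above 0 in at least 1 library. The other 14 genes were listed at 0 throughout.

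HCC4006 and HCC827, the sources of the RNA, are human cell lines from EGFR-mutant adenocarcinomas of the lung. Each was measured as a DMSO culture (solvent only) and as a derivative resistant to gefitinib, an inhibitor of the EGFR kinase, and kept in 3 µM of it. Polyadenylated RNA was measured in 2 libraries per group, called A and B as in the table headers, 8 in all. The study's title names cellular reprogramming and an FGF2-FGFR1 autocrine loop as its subject. No label ties the 2 libraries of a group to separate cultures, so p-values measure only the spread between these libraries, which may be technical. The labels name gefitinib for the resistant groups alone, so resistance and the presence of the drug cannot be told apart, and fewer cells of a type cannot be told apart from less RNA per cell.

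As background, MMPs are zinc proteases, most of them secreted as inactive proenzymes, that cut collagens, laminins, growth factors and receptors. MMP14, MMP15, MMP16, MMP17, MMP24 and MMP25 are instead held at the cell membrane. TIMPs bind and block the active proteases. Urokinase, encoded by PLAU, is bound at the cell surface by its receptor PLAUR and turns plasminogen into plasmin, which cuts matrix and can activate proMMPs. Lysyl oxidases act the other way and crosslink collagen and elastin. In carcinoma cells several of these genes are known to respond to EGFR and ERK signalling through AP-1 transcription factors, and several accompany the change from an epithelial to a mesenchymal state.

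Levels are the authors' FPKM, fragment numbers divided by transcript length and by the size of the library. Depth is unknown. Calls are adjusted p-values under 0.05 (Benjamini-Hochberg) from limma on log2(FPKM + 0.5), over all rows whose mean reached 0.5 FPKM. Log2 fold changes are resistant minus DMSO on that scale, which understates changes of low genes. In these files a 0 can be a failed estimate, because genes that nearly all cells use, such as CTSB and CTSD, are at 0 in whole groups. A group at 0 is therefore given as listed at 0 and without a fold change.

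Between 17406 and 19333 of the 48405 rows were above 0 in a library, and the member rows held between 0.0341% and 0.181% of all FPKM. The HCC4006 DMSO libraries differed from each other by a median of 0.56 on the log2 scale per row tested, and the resistant HCC4006 libraries by 0.22. In HCC827 these values were 0.37 and 0.56. Epithelial markers, 8 in the list, summed to between 9510 and 15800 FPKM in HCC4006 DMSO and to between 1630 and 1800 in resistant HCC4006. Of 6 tested in HCC4006, CDH1, EPCAM, KRT19 and NKX2-1 (in a row shared with SFTA3) were called lower by limma, against 2.98% of all rows. KRT8 and NAPSA were tested and not called (adjusted p = 0.306 and 0.524). KRT18, NAPSA and SFTPB were listed at 0 in resistant HCC4006, and did not exceed 3.14 FPKM in HCC4006 DMSO. The KRT18 row is shared with AC108867.2 and did not exceed 0.878 FPKM in any library of either line. Whether it measures KRT18 was not tested. In HCC827 the 8 markers summed to between 15700 and 16900 in DMSO and between 11500 and 20200 in resistant cells. The 8 fibroblast markers summed to between 71.7 and 122 FPKM in HCC4006 DMSO, 96.6 and 119 in resistant HCC4006, 44.1 and 50.9 in HCC827 DMSO, and 13.4 and 18.1 in resistant HCC827. COL1A1 held most of this sum. COL3A1, POSTN and THY1 were listed at 0 in all 4 groups. PDGFRB, a fibroblast and pericyte receptor in a row shared with AC005895.3, had 2.57 and 0.764 FPKM in HCC4006 DMSO against 21.9 and 26.2 in resistant HCC4006, was called higher (adjusted p = 0.0385, and 0.0793 over rows above 0), and was at 0 in HCC827. The part of these markers in the results was not tested. Of the endothelial markers, 5 of 6 were found and summed to at most 4.08 FPKM in any library. Of the 8 immune markers, PTPRC, CD3D, CD3E, MS4A1 and NKG7 were at 0 in all groups, and the list summed to between 281 and 1130 FPKM. CD68 held most of this sum, with 264 to 1122 FPKM, and was not called in either line. In HCC4006, 1 of 3 tested was called lower, CD79A, from 6.61 and 15.95 FPKM in DMSO to 0 (adjusted p = 0.0262, limma).

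Sequences are shown for 4 members whose promoters are in the RefSeq table (build GRCh38.p14) and that bear on the changes in HCC827. MMP10 and MMP24 were called lower there and MMP11 higher, and MMP7, in the same chromosome 11 cluster as MMP10, was not called. Each line gives the 150 bases before the annotated start, 5′ to 3′ on the gene's strand. Capitals mark TGANTCA, the core that AP-1 factors bind (its reverse complement is the same pattern), and TATAAA, the TATA box core, both searched on both strands. The 2 motifs do not overlap in these windows.
MMP7 (chr11:102530748-102530897, minus strand): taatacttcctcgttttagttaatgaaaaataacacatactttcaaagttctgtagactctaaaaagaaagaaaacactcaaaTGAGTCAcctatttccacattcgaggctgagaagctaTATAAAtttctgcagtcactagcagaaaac
MMP10 (chr11:102780629-102780778, minus strand): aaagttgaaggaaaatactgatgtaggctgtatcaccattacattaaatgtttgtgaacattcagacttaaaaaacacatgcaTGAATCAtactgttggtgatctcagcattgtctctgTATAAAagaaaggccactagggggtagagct
MMP11 (chr22:23772699-23772848, plus strand): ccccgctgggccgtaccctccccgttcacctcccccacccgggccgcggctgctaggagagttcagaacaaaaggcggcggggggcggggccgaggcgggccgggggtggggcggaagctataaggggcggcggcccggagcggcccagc
MMP24 (chr20:35226540-35226689, plus strand): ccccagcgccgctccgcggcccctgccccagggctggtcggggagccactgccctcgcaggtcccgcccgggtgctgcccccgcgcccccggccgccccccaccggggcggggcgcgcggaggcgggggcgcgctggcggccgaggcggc

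The MMP7 and MMP10 windows both begin a TGANTCA match 67 bases before the start, and a TATAAA match follows 30 and 31 bases before it. Neither motif occurs in the MMP11 and MMP24 windows. Of 35116 windows of this length in the table, 4.17% hold TGANTCA and 6.71% hold TATAAA. For the 52 member genes, 35 windows of 31 genes were found, of which 4 hold TGANTCA (ADAMTS12, MMP7, MMP10 and MMP20) and 7 hold TATAAA. These matches are descriptions of the sequence, and whether they bear on any change of level was not tested.

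**Figure D1:**
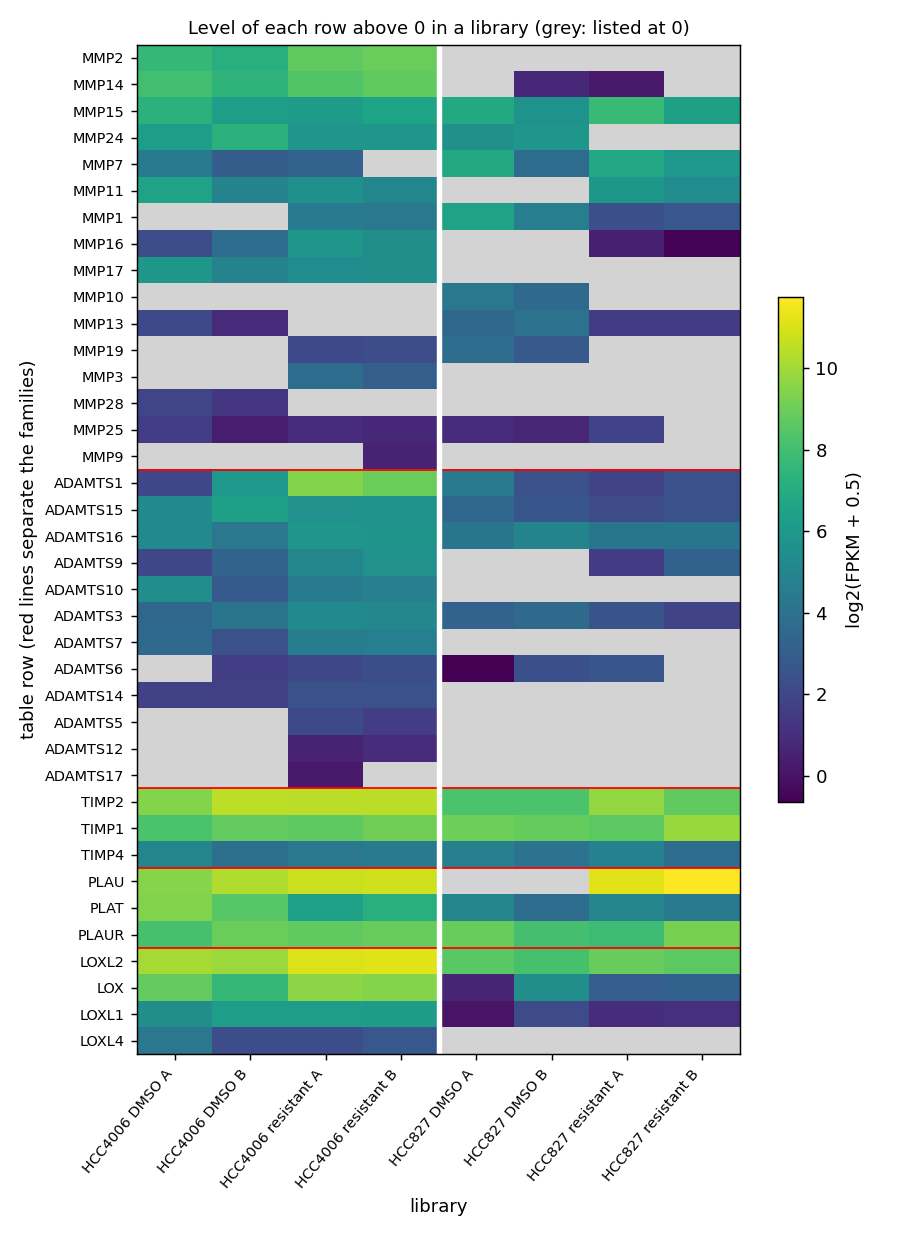
Level of each of the 38 member rows above 0 in some library, as log2(FPKM + 0.5) by colour, in the 8 libraries (columns), with grey for values listed at 0. MMP2, MMP17, ADAMTS7 and ADAMTS10 were above 0 in every HCC4006 library and at 0 in every HCC827 library, and PLAU was at 0 in the HCC827 DMSO libraries alone.

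Of the 38 rows, 25 were above 0 in both lines, 12 in HCC4006 only and 1, MMP10, in HCC827 only, and 13 were above 0 in all 8 libraries. Those in HCC4006 only were MMP2, MMP3, MMP9, MMP17, MMP28, ADAMTS5, ADAMTS7, ADAMTS10, ADAMTS12, ADAMTS14, ADAMTS17 and LOXL4. Levels were not tested between the lines, because each line has a table of its own and a common normalization is not stated.

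In resistant HCC4006, the collagenase gene MMP1, the stromelysin gene MMP3, MMP19 and the aggrecanase gene ADAMTS5 rose against DMSO, as did a row that joins the collagen-crosslinking gene LOXL2 with ENTPD4. These 5 of 35 tested members were called higher and 0 lower, against 9.36% of all 19881 rows called (6.37% higher and 2.98% lower). For the lower direction, limma gave 3 members at an unadjusted p under 0.05, and no other tool was run. Without DMSO library A the counts were 3 higher and 1 lower, and without DMSO library B 7 and 2. Of the 5, MMP1, MMP3, MMP19 and ADAMTS5 were listed at 0 in both DMSO libraries, and the LOXL2 row was above 0 in all, with an adjusted p = 0.049 that was lost in 7 of 14 alternative settings. A fit over rows above 0 in every library leaves out MMP1, MMP3, MMP19 and ADAMTS5. In it 0 of 26 members were called by limma, with 11 at an unadjusted p under 0.05 and 0.534% of all rows called. In that subset 18 of 26 members had positive fold changes, against 47.8% of all 16484 such rows. The median log2 fold change was 0.46 for these members and −0.04 over all such rows.

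In resistant HCC827, MMP11 and the urokinase gene PLAU rose, and the stromelysin gene MMP10, MMP19 and the membrane protease gene MMP24 fell. These were 5 of 24 tested members, against 6.8% of all 19324 rows called (5.13% higher and 1.67% lower). All 5 had a group listed at 0, MMP11 and PLAU in DMSO and the others in the resistant libraries. A fit over rows above 0 in every library leaves out all 5. In it 0 of 16 members were called by limma, with 3 at an unadjusted p under 0.05 and 0.119% of all rows called. Of those 16, 8 had positive fold changes, against 43.9% of 15917 rows, and the median was −0.03 against −0.10 over these rows. Without DMSO library A or DMSO library B, limma called none of the rows of the whole table, members included, while 9 and 10 members had an unadjusted p under 0.05. Without resistant library A, or without resistant library B, 3 were called higher and 1 lower.

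A contrast of the change in HCC827 minus that in HCC4006, over all 8 libraries, was called for 10 of 35 tested members, against 12.1% of all 20685 rows. It was positive for 3, PLAU, MMP11 and MMP28 (6.27% of all rows), and negative for 7, MMP1, MMP3, MMP10, MMP19, MMP24, ADAMTS3 and ADAMTS5 (5.82%). For MMP3, ADAMTS5 and MMP28 all 4 HCC827 libraries were listed at 0, and for MMP10 all 4 HCC4006 libraries. In these 4 the contrast restates the change of the other line and is no comparison of changes. ADAMTS3 alone of the 10 was above 0 in all 8 libraries. Over rows above 0 in every library, which leave out the rest of the 10, limma called 0 of 13 members, with 3 at an unadjusted p under 0.05 and 1.45% of all rows called.

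The genes of 9 secreted MMPs lie side by side on chromosome 11 between 102391238 and 102826463 (hg19, positions as the tables give them), about 435 kb, in the order MMP7, MMP20, MMP27, MMP8, MMP10, MMP1, MMP3, MMP12 and MMP13. MMP20, MMP27, MMP8 and MMP12 were listed at 0 in all 8 libraries. MMP3 has a second row on the same locus, also at 0 throughout. MMP1, MMP3 and MMP10 are close paralogs, and how fragments shared by them were assigned is not given in the sources used here.

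MMP1 encodes interstitial collagenase, which cleaves fibrillar collagen. It was listed at 0 in both HCC4006 DMSO libraries and measured 22.2 and 19.7 FPKM in the resistant libraries (adjusted p = 0.00304, limma), and it was called without any one library (adjusted p 0.0158 to 0.0208). In HCC827 it measured 89.0 and 24.6 FPKM in DMSO and 4.65 and 6.06 in the resistant libraries. The HCC827 groups did not overlap and the mean was 10.6-fold lower in resistant cells, but the test was not passed (log2 fold change −3.03, SE 0.70, adjusted p = 0.105). It was passed with quantile normalization (0.0349) and with all 8 libraries in 1 fit (0.0308). The difference between the lines was called (adjusted p = 0.00125).

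MMP3, which encodes stromelysin-1, an activator of other proMMPs, was at 0 in the HCC4006 DMSO libraries and in all 4 HCC827 libraries. Resistant HCC4006 had 13.0 and 8.18 FPKM (adjusted p = 0.0121 by limma, but 0.0595 without DMSO library A and 0.0532 without DMSO library B). MMP10, stromelysin-2, had the opposite distribution. It measured 19.0 and 11.7 FPKM in HCC827 DMSO and was listed at 0 in the resistant HCC827 libraries (adjusted p = 0.0097) and in all 4 HCC4006 libraries. The MMP10 call was lost without any one library, at adjusted p of 0.0746 and 0.0609 without DMSO A and B and of 0.135 and 0.136 without resistant A and B. MMP3 and MMP10 were therefore each seen in 1 group of the 4.

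MMP13, collagenase-3, did not pass the test in either line, although its groups did not overlap and DMSO was the higher one in each. It measured 3.82 and 1.29 FPKM in HCC4006 DMSO and was listed at 0 in the resistant libraries (adjusted p = 0.134). In HCC827 it measured 10.9 and 15.3 FPKM in DMSO and 2.39 and 2.41 in resistant cells (log2 fold change −2.21, SE 0.44, adjusted p = 0.0674). With all 8 libraries in 1 fit it was called lower in both lines (0.027 and 0.0494), in HCC4006 also without DMSO B (0.00651), and in HCC827 also with quantile normalization (0.0362) and without the variance trend (0.0377). MMP7, matrilysin, a small protease of glandular epithelia, spread widely. In HCC4006 it measured 21.4 and 7.61 FPKM in DMSO and 9.04 and 0 in the resistant libraries. HCC827 had 113 and 12.9 FPKM in DMSO and 109 and 61.4 in resistant cells, so that the groups overlapped (log2 fold change 1.07, SE 1.09, adjusted p = 0.639).

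MMP19, on chromosome 12 (56223528 to 56236735, hg19), was listed at 0 in HCC4006 DMSO and measured 3.79 and 4.45 FPKM in resistant HCC4006 (adjusted p = 0.0292). In HCC827 it went the other way, from 13.3 and 6.63 FPKM in DMSO to 0 in both resistant libraries (adjusted p = 0.0243). The difference between the lines had an adjusted p = 0.000422. The HCC4006 call held without each library in turn (0.0229 to 0.0332), and the HCC827 call was lost without each (0.0609 to 0.199). The non-coding row AC023055.1 on the same locus was low as well, with at most 2.88 FPKM in any library, and both were at 0 in HCC4006 DMSO and in resistant HCC827.

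**Figure D2:**
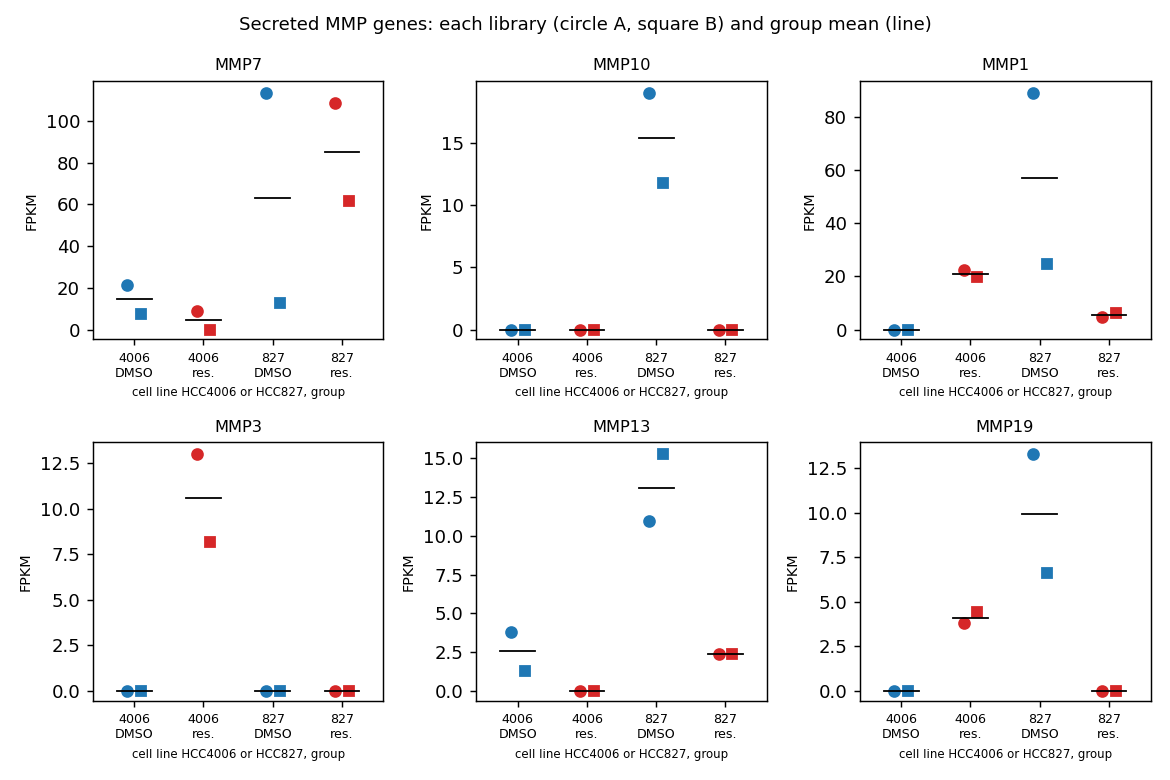
FPKM of MMP7, MMP10, MMP1, MMP3, MMP13 and MMP19 in each library (circles A, squares B), with DMSO in blue, resistant in red and the group mean as a line. In HCC4006, MMP1 and MMP19 were above 0 in the resistant libraries alone, and in HCC827 both resistant libraries lay below both DMSO libraries for each. In HCC827, 24.7% of all rows lay lower in this way.

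MMP2 and MMP14 belong together, since MMP14 at the membrane activates proMMP2, the gelatinase, with TIMP2 as a bridge. MMP2 (chromosome 16, 55512882 to 55540603, hg19) measured 197 and 145 FPKM in HCC4006 DMSO and 424 and 480 in resistant HCC4006, 2.64-fold higher on average. The groups did not overlap and the test was narrowly missed (log2 fold change 1.41, SE 0.25, adjusted p = 0.0568). It was passed with median-of-ratios scaling (0.0477) and with all 8 libraries in 1 fit (0.0305). MMP14 measured 252 and 167 FPKM in HCC4006 DMSO and 328 and 428 in resistant cells (log2 fold change 0.87, SE 0.31, adjusted p = 0.226). In HCC827, MMP2 was listed at 0 in all 4 libraries and MMP14 did not exceed 1.15 FPKM in any.

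Of the other membrane-held MMPs, MMP15 was measured in both lines without a call. It had 162 and 74.8 FPKM in HCC4006 DMSO against 73.5 and 92.6, and 119 and 52.0 in HCC827 DMSO against 205 and 83.4, with overlapping groups in each line (log2 fold changes −0.41, SE 0.46, adjusted p = 0.635, and 0.73, SE 0.64, adjusted p = 0.588). MMP16, in a row that also names AC037450.1, measured 4.38 and 13.5 FPKM in HCC4006 DMSO and 60.1 and 44.5 in resistant HCC4006, 5.86-fold higher on average. Its groups did not overlap, but it was not called (log2 fold change 2.66, SE 0.61, adjusted p = 0.102), except with all 8 libraries in 1 fit (0.0447). In HCC827 it was at 0 in DMSO and did not exceed 0.852 FPKM in resistant cells. MMP17 measured between 28.8 and 59.5 FPKM in HCC4006 with overlapping groups and was at 0 in HCC827. MMP25 did not exceed 3.16 FPKM in any library.

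MMP24 (chromosome 20, 33805627 to 33865934, hg19) encodes a membrane protease best known from neurons. It measured 47.2 and 58.1 FPKM in HCC827 DMSO and was listed at 0 in both resistant HCC827 libraries (adjusted p = 0.00143, and 0.0739 and 0.0609 without DMSO A and B). In HCC4006 it measured 74.7 and 159 FPKM in DMSO and 56.6 and 59.4 in resistant cells (log2 fold change −0.91, SE 0.44, adjusted p = 0.339). C20orf127 shares its locus. It had 46.3 and 26.9 FPKM in HCC827 DMSO and was also listed at 0 in both resistant HCC827 libraries, so that the whole locus was at 0 there. Whether this is a failed estimate was not tested.

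MMP11, stromelysin-3, is unusual among MMPs in leaving the cell already active. It was listed at 0 in HCC827 DMSO and measured 60.3 and 40.1 FPKM in resistant HCC827 (adjusted p = 0.0019, and 0.0837 and 0.074 without DMSO A and B). CHCHD10, on the same locus (chromosome 22, 24105207 to 24126503, hg19), measured 833 and 792 FPKM in the HCC827 DMSO libraries, so the locus as a whole was not at 0. In HCC4006 MMP11 had 90.8 and 29.5 FPKM in DMSO against 46.9 and 33.0 in resistant cells, with overlapping groups (log2 fold change −0.39, SE 0.64, adjusted p = 0.75). The difference between the lines had an adjusted p = 0.00224.

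MMP28, epilysin, was low. It measured 3.35 and 1.99 FPKM in HCC4006 DMSO and was listed at 0 in resistant HCC4006 and in all HCC827 libraries. Its change in HCC4006 was not called (adjusted p = 0.0707), but it was called at a pseudocount of 0.1 (0.0382), without a filter on the mean (0.0388), with quantile normalization (0.0381), without the variance trend (0.0229), with all 8 libraries in 1 fit (0.00723), and without DMSO A (0.0245) or DMSO B (0.00651). The gelatinase gene MMP9 was above 0 in 1 library only, resistant HCC4006 B, at 0.993 FPKM.

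Among the ADAMTS genes, 12 of 19 were above 0 in some library. In HCC4006, 11 were tested and 9 of these had both resistant libraries above both DMSO libraries and 0 had both below, where 26.6% of all rows lay higher in this way and 26.5% lower. ADAMTS5 was the 1 that was called. ADAMTS5 and ADAMTS12, both among the 9, were listed at 0 in both DMSO libraries and passed the filter on the mean through the resistant group alone. They could therefore not lie lower. In HCC827, 6 were tested, 1 lay higher in this way and 2 lower, where 24.3% and 24.7% of all rows did. Of these 6 none was called by limma, and none had an unadjusted p under 0.05 except ADAMTS9. ADAMTS9 was the 1 that lay higher, and it was listed at 0 in both HCC827 DMSO libraries and likewise could not lie lower.

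ADAMTS1, a protease of versican and aggrecan that also restrains angiogenesis, measured 3.52 and 61.0 FPKM in HCC4006 DMSO and 674 and 490 in resistant HCC4006. The resistant mean was 18.1-fold higher, but the DMSO libraries lay far apart and the test was not passed (log2 fold change 5.19, SE 1.45, adjusted p = 0.149). Without DMSO library B the log2 fold change was 7.16 and the adjusted p = 0.0237. In HCC827 it measured 20.9 and 4.87 FPKM in DMSO and 3.20 and 5.00 in resistant cells, with overlapping groups (log2 fold change −1.25, SE 0.79, adjusted p = 0.49). The difference between the lines was not called (adjusted p = 0.0821), and was called without HCC4006 DMSO library B (0.0148).

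ADAMTS5 cleaves the proteoglycan aggrecan and lies next to ADAMTS1 on chromosome 21. It was listed at 0 in HCC4006 DMSO and in all HCC827 libraries and measured 3.77 and 2.59 FPKM in resistant HCC4006 (adjusted p = 0.049). The call was lost without DMSO A (0.0698) or DMSO B (0.0581), at a pseudocount of 1 (0.0617) and with quantile normalization (0.0692). ADAMTS3, a procollagen N-propeptidase, measured 10.7 and 16.8 FPKM in HCC4006 DMSO and 38.9 and 35.1 in resistant cells (log2 fold change 1.42, SE 0.31, adjusted p = 0.0934). HCC827 had 9.04 and 12.0 FPKM in DMSO against 5.38 and 3.25 (log2 fold change −1.22, SE 0.47, adjusted p = 0.282). The groups overlapped in neither line, and the difference between the changes was called (log2 −2.64, SE 0.54, adjusted p = 0.0271). It was not called over rows above 0 in every library (0.0797). It was also lost without HCC4006 DMSO A (0.0649), resistant A (0.129) or resistant B (0.111), and without HCC827 DMSO A (0.0579), DMSO B (0.0969) or resistant B (0.0646).

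ADAMTS9 was not called in either line, although its resistant libraries lay above its DMSO libraries in both. It measured 3.44 and 9.24 FPKM against 32.2 and 49.6 in HCC4006 (log2 fold change 2.71, SE 0.57, adjusted p = 0.085), and was at 0 in HCC827 DMSO against 2.44 and 8.74 in resistant HCC827 (adjusted p = 0.113). In HCC827 it was called without resistant A (0.0132), without resistant B (0.0106) and with all 8 libraries in 1 fit (0.0345). ADAMTS15 and ADAMTS16 were measured in every library. ADAMTS16 had 39.1 and 18.6 FPKM in HCC4006 DMSO against 55.7 and 53.3 (adjusted p = 0.293) and, in HCC827, 17.5 and 30.6 FPKM against 17.6 and 17.8. ADAMTS15 had 38.6 and 84.4 FPKM against 48.8 and 50.7 in HCC4006 and 10.9 and 5.94 against 4.14 and 5.06 in HCC827 (log2 fold change −0.76, SE 0.50, adjusted p = 0.502).

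The remaining ADAMTS genes were seen mainly in HCC4006. ADAMTS7 measured 12.1 and 4.89 FPKM in DMSO and 22.9 and 25.4 in resistant cells, and ADAMTS10 ranged from 6.90 to 43.1 FPKM with overlapping groups. ADAMTS14 lay between 2.81 and 4.89 FPKM, ADAMTS6 did not exceed 5.96 FPKM in any library of either line, and ADAMTS12 and ADAMTS17 did not exceed 1.38 FPKM. ADAMTS2, ADAMTS4, ADAMTS8, ADAMTS13, ADAMTS18, ADAMTS19 and ADAMTS20 were listed at 0 throughout. The ADAMTS13 row shares its locus with REXO4, also at 0 in all 8 libraries.

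Of the inhibitors, none of the 3 measured TIMP genes was called by limma in either line, and 0 had an unadjusted p under 0.05. TIMP1 measured 300.4 and 435 FPKM in HCC4006 DMSO and 414 and 535 in resistant HCC4006 (log2 fold change 0.38, SE 0.29, adjusted p = 0.514). In HCC827 it had 508 and 456 FPKM against 396 and 901 (log2 fold change 0.31, SE 0.47, adjusted p = 0.762). Its locus on chromosome X also holds ARAF and SYN1.

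TIMP2, in a row that also names AC100788.1, measured 696 and 1446 FPKM in HCC4006 DMSO against 1424 and 1404 (log2 fold change 0.50, SE 0.42, adjusted p = 0.534). Without DMSO library B the value was 1.02 with an adjusted p = 0.04, and without DMSO library A it was −0.03. HCC827 had 300.5 and 305 FPKM in DMSO and 857 and 423 in resistant cells, which did not overlap (log2 fold change 0.99, SE 0.43, adjusted p = 0.328). TIMP4 lay between 12.7 and 31.3 FPKM in all libraries. TIMP3, which binds the matrix, was listed at 0 in all 8 libraries, as was SYN3, whose gene contains it.

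PLAU (chromosome 10, 75669726 to 75682535, hg19) had the highest FPKM of any member in any library, in resistant HCC827. In HCC4006 it measured 718 and 1221 FPKM in DMSO and 1713 and 1833 in resistant cells (log2 fold change 0.92, SE 0.33, adjusted p = 0.225). The groups did not overlap, and it was called without DMSO library B (adjusted p = 0.0418). In HCC827 it was listed at 0 in both DMSO libraries and measured 2358 and 3427 FPKM in the resistant libraries (adjusted p = 0.000425, and 0.0739 and 0.0609 without DMSO A and B). C10orf55, the other row on this locus, was also at 0 in both HCC827 DMSO libraries, with 4.5 and 20.5 FPKM in the resistant ones. The locus as a whole was thus at 0 in HCC827 DMSO, and whether this is a failed estimate was not tested.

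PLAUR, the urokinase receptor gene, measured 279 and 494 FPKM in HCC4006 DMSO against 418 and 459, and 467 and 272 in HCC827 DMSO against 228 and 592. The groups overlapped in both lines (log2 fold change 0.24, SE 0.35, adjusted p = 0.723 in HCC4006 and 0.04, SE 0.58, adjusted p = 0.981 in HCC827). PLAT encodes the tissue-type plasminogen activator, best known for dissolving fibrin clots. It measured 674 and 367 FPKM in HCC4006 DMSO and 85.9 and 145 in resistant HCC4006, 4.5-fold lower on average. The groups did not overlap and the test was not passed (log2 fold change −2.15, SE 0.46, adjusted p = 0.0866). In HCC827, PLAT measured 31.5 and 13.0 FPKM against 31.9 and 21.0.

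**Figure D3:**
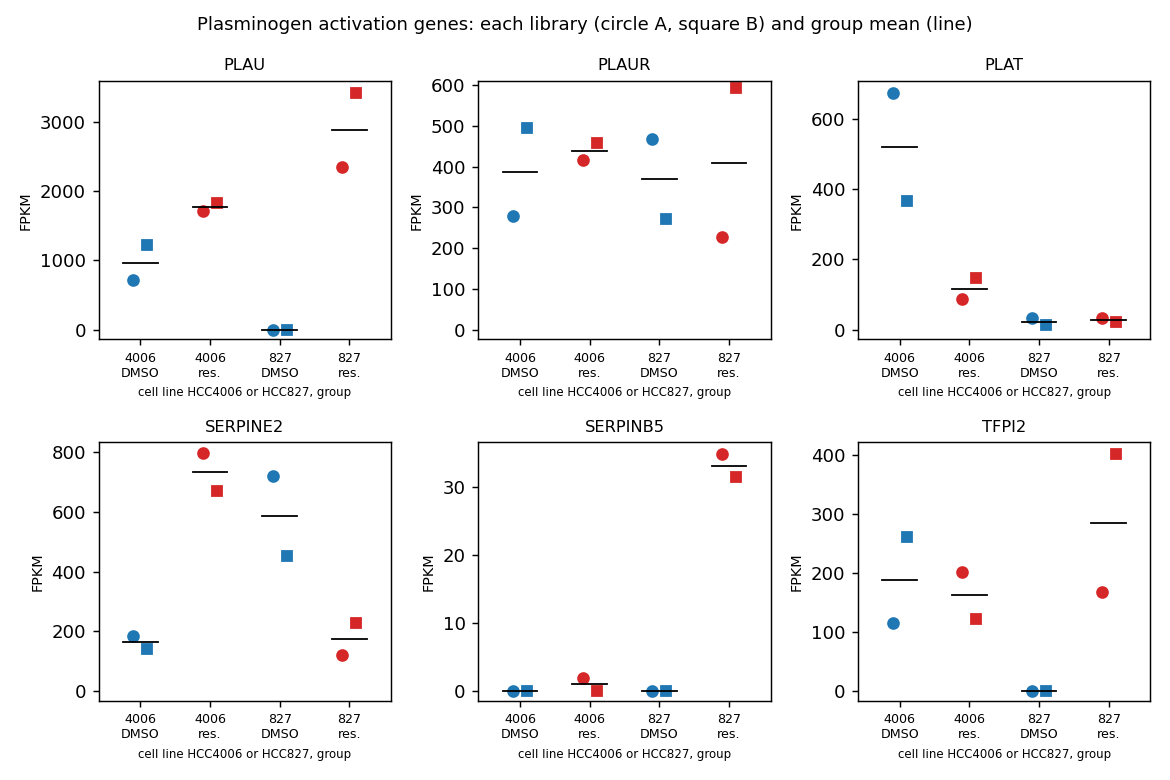
FPKM of PLAU, PLAUR, PLAT and the inhibitor-family genes SERPINE2, SERPINB5 and TFPI2 in each library (circles A, squares B), with DMSO in blue, resistant in red and the group mean as a line. PLAU, SERPINB5 and TFPI2 were at 0 in both HCC827 DMSO libraries and above 0 in both resistant ones.

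Other genes of the plasminogen system were taken from a list of 12, of which 10 were found. In HCC4006, 2 of 7 tested were called higher and 0 lower, with 4 at an unadjusted p under 0.05, and in HCC827 1 of 8 was called higher. Of all rows, 6.37% were called higher and 2.98% lower in HCC4006, and 5.13% and 1.67% in HCC827, and the counts of the lists that follow stand beside the same shares. SERPINE2, protease nexin-1, an inhibitor of urokinase and thrombin, rose in HCC4006. Its DMSO libraries had 183 and 142 FPKM and its resistant libraries 798 and 668 (log2 fold change 2.17, adjusted p = 0.017, but 0.0613 over rows above 0). In HCC827 it measured 720 and 452 FPKM in DMSO and 120 and 228 in resistant cells (log2 fold change −1.78, adjusted p = 0.135). The difference between the lines was called, also over rows above 0 (adjusted p = 0.00565 and 0.0203). LRP1, the endocytic receptor that clears protease and inhibitor complexes, shares its row with AC137834.1. It was at 0 in HCC4006 DMSO and at 9.36 and 13.2 FPKM in resistant HCC4006 (adjusted p = 0.00905). SERPINB5, maspin, was at 0 in HCC827 DMSO and at 34.8 and 31.4 FPKM in resistant HCC827 (adjusted p = 0.00229).

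The row of LOXL2 rose in HCC4006. It measured 1075 and 947 FPKM in DMSO and 2156 and 2274 in resistant HCC4006, 2.19-fold higher on average, in a row that also names ENTPD4 and cannot be assigned to LOXL2 alone (log2 fold change 1.13, SE 0.19, adjusted p = 0.049). The call was lost over rows above 0 in every library (0.127), at a pseudocount of 1 (0.0514), without the variance trend (0.0806), without DMSO A (0.0512), and without resistant A (0.33) or B (0.356). In HCC827 it measured 378 and 279 FPKM against 468 and 391 (log2 fold change 0.40, SE 0.31, adjusted p = 0.553).

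LOX, the founding lysyl oxidase, measured 429 and 193 FPKM in HCC4006 DMSO and 775 and 701 in resistant HCC4006 (log2 fold change 1.35, SE 0.46, adjusted p = 0.203, and 1.93 with an adjusted p = 0.0363 without DMSO library A). In HCC827 it was low and spread, with 1.05 and 44.2 FPKM in DMSO and 7.77 and 8.58 in resistant cells. LOXL1 measured 44.4 and 78.5 FPKM against 75.2 and 71.0 in HCC4006 and did not exceed 4.07 FPKM in HCC827 (log2 fold change 0.30, SE 0.35, adjusted p = 0.649 in HCC4006). LOXL4 measured 18.7 and 4.31 FPKM against 4.59 and 5.99 in HCC4006 and was at 0 in HCC827.

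**Figure D4:**
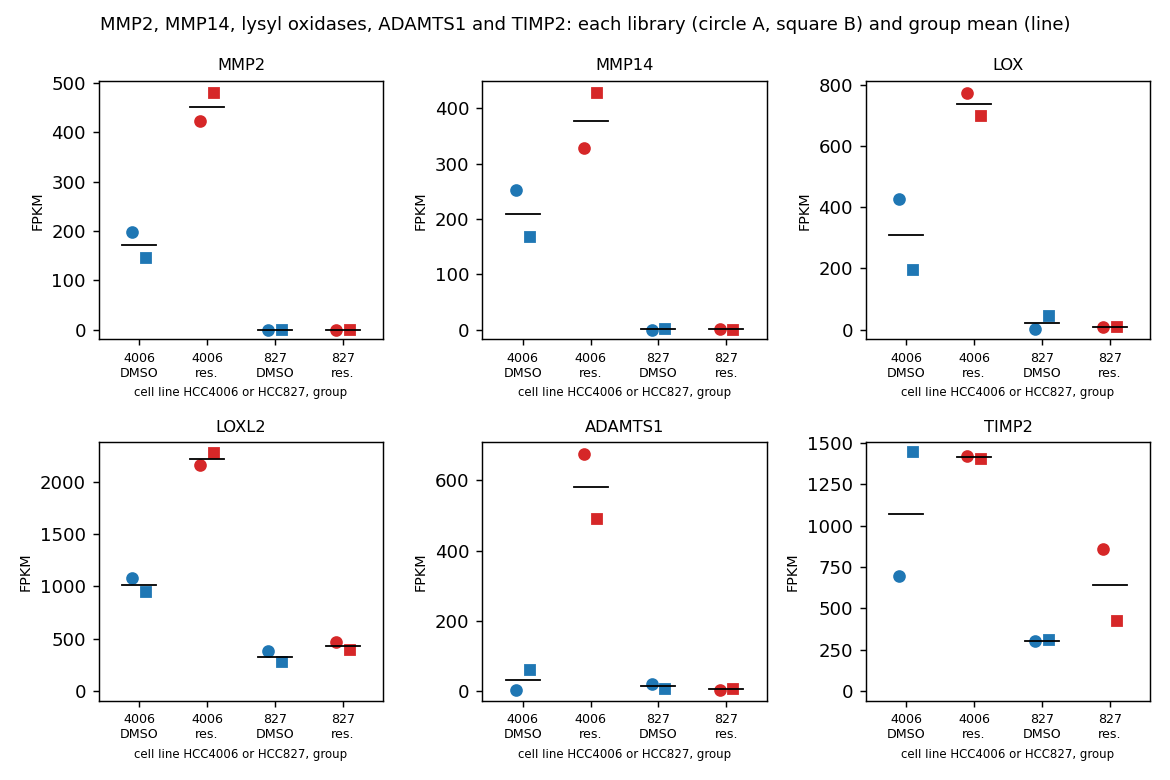
FPKM of MMP2, MMP14, LOX, LOXL2, ADAMTS1 and TIMP2 in each library (circles A, squares B), with DMSO in blue, resistant in red and the group mean as a line. In HCC4006 both resistant libraries lay above both DMSO libraries for all but TIMP2, where 26.6% of all rows lay higher in this way and 26.5% lower. Among the genes shown only the LOXL2 row was called, in HCC4006. In HCC827 MMP2 was at 0 and MMP14, LOX and ADAMTS1 did not exceed 44.2 FPKM.

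**Figure D5:**
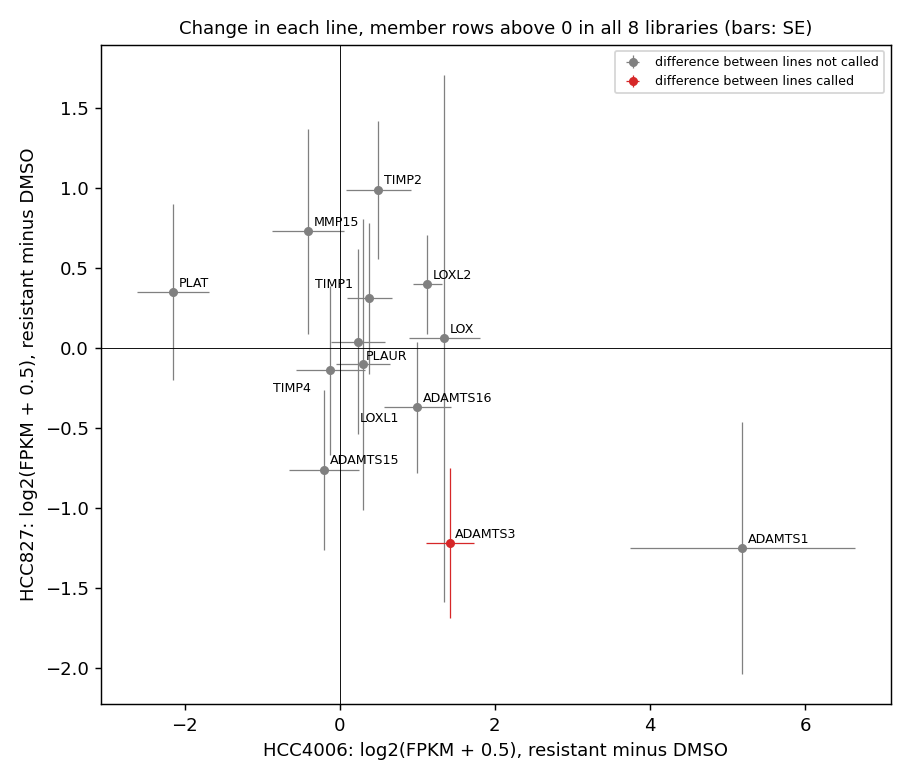
Log2 fold change in HCC4006 (horizontal) against that in HCC827 (vertical), resistant minus DMSO of log2(FPKM + 0.5), for the 13 member rows above 0 in all 8 libraries, with bars for the SE. ADAMTS3, in red, is the 1 whose difference between the lines was called, and ADAMTS1 has the highest fold change in HCC4006 with the widest bar there.

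Other regulators and proteases were counted by list. Of 10 genes that regulate MMPs or their substrates, 9 were tested in each line. In HCC4006, 1 was called lower, the proteoglycan gene SPOCK2, with 377 and 1126 FPKM in DMSO against 0.628 and 0.495 (log2 fold change −9.27, adjusted p = 0.00377). In HCC827, TFPI2, an inhibitor of plasmin and of MMPs, was called higher, from 0 in DMSO to 168 and 402 FPKM (adjusted p = 0.00112). PCOLCE2, an enhancer of procollagen processing, was called lower there, with 184 and 149 FPKM in DMSO against 23.1 and 14.9 (log2 fold change −3.12, adjusted p = 0.0109, but 0.066 over rows above 0). RECK, a membrane inhibitor of MMPs, and BSG, an inducer of MMPs in neighbouring cells, were not called in either line.

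ADAM genes encode membrane relatives of the ADAMTS proteases, and only some of these shed growth factors and receptors. Of 11 ADAM genes, 1 of 8 tested was called higher in HCC4006, where 6.37% of all rows were. That was ADAM23, from 0 to 6.97 and 5.57 FPKM (adjusted p = 0.0168). By limma 6 of the 8, in both directions, had an unadjusted p under 0.05 in HCC4006, as did 4564 of all 19881 rows. In HCC827, 0 of 7 were called by limma, and 0 had an unadjusted p under 0.05. Of 6 ADAMTS-like genes, which lack the protease domain, ADAMTSL1 was called higher in HCC4006, from 0 and 0.534 FPKM to 9.43 and 20.3 (adjusted p = 0.0372). ADAMTSL4 was called lower, from 25.4 and 29.0 to 5.77 and 5.75 (adjusted p = 0.0179, but 0.0912 over rows above 0). In HCC827, 0 of 4 were called and 0 had an unadjusted p under 0.05.

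Of 20 further pericellular proteases and crosslinkers, 5 of 17 tested were called higher and 1 lower in HCC4006, and 1 of 16 higher in HCC827, where 5.13% of all rows were. The membrane serine protease gene ST14, matriptase of epithelia, fell in HCC4006, with 672 and 847 FPKM in DMSO against 15.0 and 10.5 (log2 fold change −5.86, adjusted p = 0.00149, and 0.0241 over rows above 0) and in HCC827 measured 733 and 394 against 601 and 537. For ST14 the lines differed (adjusted p = 0.000531). The higher calls in HCC4006 were the lysosomal cathepsin genes CTSB and CTSD, both listed at 0 in DMSO, CTSL1, and the cell surface peptidase genes DPP4 and MME. CTSB measured 2893 and 2812 FPKM in the resistant libraries, and CTSD 3468 and 3352 in a row it shares with 2 other names (adjusted p = 0.000483 for each). In HCC827, CTSB measured between 1020 and 2365 FPKM and CTSD was listed at 0 in every library. Whether the 0 values of CTSB and CTSD are failed estimates was not tested, so these calls may not be changes of level. DPP4 had 17.1 and 39.4 FPKM in DMSO against 257 and 224, and MME 1.90 and 7.94 against 209.6 and 226 (adjusted p = 0.0381 and 0.0234, but 0.074 and 0.0585 over rows above 0). CTSL1 had 452 and 480 FPKM in DMSO against 1406 and 1368 (log2 fold change 1.57, adjusted p = 0.018, and 0.0729 over rows above 0). In HCC827 the higher call was LOXL3, from 0 to 21.3 and 26.7 FPKM (adjusted p = 0.00383).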

How the data were processed

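The authors deposited gene-level FPKM in 2 tables, 1 per cell line. Tools named per the submitters' processing notes are Cufflinks 1.3.0, Cuffdiff and TopHat 1.4.1, with hg19 as the build, and per the labels' protocols the TruSeq RNA v2 kit was used, which does not mark strand. Annotation and options: not given in the sources used here. Rows joined by name (3 of the members) or sharing a locus (22 of the 38 above 0) are uncertain. Column letters were not tied to the labels' replicate numbers, and there were 0 per-sample columns outside the 8 libraries.

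Each line was fitted alone in limma 3.58.1 (R 4.3.3; lmFit, eBayes with trend) on log2(FPKM + 0.5), and the difference between lines over all 8 libraries. Rows with a mean FPKM under 0.5 in a fit were left out: 35 of 54 member rows were tested in HCC4006 and 24 in HCC827, and those that passed through their higher group alone had to differ. Members and lists were chosen with earlier results of these data known. Members called in the fits above or with a group mean of at least 50 FPKM are given with their library values, or with the highest value in a line where they were low. Tests are given for most of these comparisons but not for all. Others are given by level or range, except MMP13 and ADAMTS9, whose tests were added after their values were seen. Pathway genes are named where called within a line, and RECK and BSG without a call. HPSE and ADAM28 were called only in the difference between the lines (adjusted p = 0.0422 and 0.0478, limma), HPSE not over rows above 0 (0.0947). Alternatives were other pseudocounts, filters, scalings and variance models, rows above 0 only, a block by column letter, 1 fit of all libraries, and each library left out. Promoter sequences and their coordinates are RefSeq's on GRCh38.p14, while locus positions are the tables' on hg19.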

Additional observations from a re-analysis of the deposited data

Results flagged for a closer look

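The limma contrast of the changes in the 2 lines was called for 10 member rows. Its adjusted p was 2.85e-05 for PLAU, 0.000422 for MMP19, 0.00104 for MMP24, 0.00125 for MMP1, 0.00194 for MMP10, 0.00224 for MMP11, 0.00313 for MMP3, 0.0182 for ADAMTS5, 0.0271 for ADAMTS3 and 0.0303 for MMP28. All but ADAMTS3 had at least 1 group listed at 0, and MMP3, ADAMTS5 and MMP28 (HCC827) and MMP10 (HCC4006) were at 0 in a whole line, so that their contrast equals the change of the other line. For MMP1, MMP19 and ADAMTS3, both resistant libraries lay above both DMSO libraries in HCC4006 and below them in HCC827. Of all rows, 26.6% lay above in this way in HCC4006 and 24.7% below in HCC827, and the share that did both was not counted. MMP1 and MMP19 were listed at 0 in HCC4006 DMSO, and MMP19 also in resistant HCC827, so they could not lie the other way there.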

How the results depend on the processing

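In HCC4006 limma called 5 members higher, against 3 at a pseudocount of 1, 0 over rows above 0 in every library, and 3 to 7 with 1 library left out. These were partly other members: LOX, MMP1 and MMP19 without DMSO A, and ADAMTS1, ADAMTS6, LOXL2, MMP1, MMP19, PLAU and TIMP2 without DMSO B. The 0 called lower there became 1 at a pseudocount of 0.1, without a filter, with quantile normalization and without the variance trend, 2 with all 8 libraries in 1 fit, and 0 to 2 with 1 library left out. In HCC827, 2 higher and 3 lower became 0 and 0 over rows above 0, the lower ones 5 with quantile normalization and with all 8 libraries in 1 fit, and with 1 library left out 0 to 3 were higher and 0 to 1 lower. The 10 differences between lines became 0 over rows above 0 and 8 to 11 with 1 library left out. The fits over rows above 0 leave out members with a group at 0 before any test. These were 4 of the 5 called in HCC4006, all 5 in HCC827, and all but ADAMTS3 of the 10 differences. For them the loss of the call was fixed in advance. The cause of the other shifts was not tested. Over all rows, HCC4006 had 1860 calls, 88 over rows above 0 and 3565 without DMSO library B. Quantile normalization moved the median log2 fold change of all rows from −0.01 to −0.19 in HCC4006 and from −0.04 to −0.24 in HCC827.

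Column letters were not shown to pair the libraries (r of their deviations −0.04 in HCC4006 and 0.15 in HCC827, 2 pairs each). With the letter as a replicate block, 3 members were called higher in HCC4006 (MMP1, MMP3 and ADAMTS9), while MMP19 (adjusted p = 0.124), LOXL2 (0.167) and ADAMTS5 (0.172) lost their calls. In HCC827 the block gave 2 higher and 4 lower (adding MMP1, adjusted p = 0.048), and 7 differed between the lines, without ADAMTS3, ADAMTS5 and MMP28.

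No called change reversed its sign. Uncalled log2 fold changes that did, with 1 library left out, ranged in HCC4006 from −0.03 to 1.02 for TIMP2, −0.10 to 0.71 for LOXL1, −1.20 to 0.41 for MMP11, −0.97 to 0.14 for MMP15, −0.17 to 0.65 for PLAUR and −0.76 to 0.36 for ADAMTS15. In HCC827 they ranged from −0.77 to 0.02 for ADAMTS16, −2.37 to 2.48 for LOX, −1.19 to 0.99 for LOXL1, −0.47 to 2.62 for MMP7, −0.28 to 0.97 for PLAT, −0.64 to 0.73 for PLAUR and −0.28 to 0.90 for TIMP1. The difference between the lines ranged from −3.72 to 1.13 for LOX, −1.50 to 0.69 for LOXL1, −0.88 to 0.49 for PLAUR, −0.66 to 0.52 for TIMP1, −0.03 to 1.02 for TIMP2, −0.15 to 1.50 for ADAMTS9 and −0.37 to 0.90 for MMP13. At a pseudocount of 1 it was −0.07 for ADAMTS9 and −0.30 for MMP13, and with quantile normalization −0.24 for MMP13. LOX in HCC827 was −0.07 at a pseudocount of 1 and −0.27 with quantile normalization, and LOXL1 was 0.01 at a pseudocount of 0.1. Depth is unknown, so no floor could be given for values listed at 0.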
